A study of Mus musculus with 12 samples.

Results

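Macrophage marker genes were followed across 12 RNA sequencing libraries of cultured mouse adipocytes. The list held 46 genes, and a gene was kept where at least 2 of the 8 primary-culture libraries had 1 FPKM or more (fragments per kilobase of transcript scaled to the mapped fragments of the library, a level per length). This kept 44 of the 46, among 24888 entries in each library and 11294 genes that passed the same rule. The 6 groups held 2 libraries each. KO-labelled beige and WT beige cultures were C57BL/6 preadipocytes of inguinal white fat, ATF7KO or WT by label, differentiated with rosiglitazone, an agonist of the nuclear receptor PPARγ. KO-labelled white and WT white cultures were the same kinds of cells differentiated without it. The other 2 groups were C3H10T1/2 cells, an established mesenchymal line of mouse embryo origin, made beige with rosiglitazone and either overexpressing ATF7 (C3H10T1/2 OE) or serving as control (C3H10T1/2 control), which gives the level of the markers in a mesenchymal line. The labels do not give the allele, age or sex of the mice, nor whether the 2 replicates came from separate animals or cultures, so p-values measure the spread between these libraries, which may be technical.

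Macrophages are phagocytes that live in every tissue, and white fat holds a resident population among the stromal cells from which preadipocytes are prepared. They depend on the receptor CSF1R, whose ligands are CSF1 and IL-34, and on the transcription factor PU.1, the product of Spi1. Their surface carries Fc receptors that bind antibody, scavenger receptors and lectins that take up debris and sugars, and receptors for complement fragments, and they secrete the complement protein C1q. A bulk RNA library sums the RNA of all cells in the dish.

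The promoters of 32 kept members were present in the RefSeq table (GRCm38.p6), with 37 windows that reach from 250 bases before to 50 bases after a start. Of these windows 22 held GAGGAA or its reverse complement TTCCTC, the core that PU.1 binds, which was 59.5% against 28.3% of all 32851 windows. By gene, 20 of 32 members had it in at least 1 window, against 31.3% of 27025 genes. The ATF/CRE core TGACGT, or ACGTCA on the other strand, stood in 1 of 37 windows (2.7%), that of Cd68, against 7.5% of all windows, and it did not overlap the PU.1 core there. A match of letters is a description and no measured binding site. Shown here are the windows of Mrc1, which had 3 PU.1 cores, of Cd68, which had 2 and the only ATF/CRE core, and of C1qb and C1qc, neighbouring genes of the same protein. They stand at chr2:14229164-14229463 (plus strand), chr11:69666121-69666420 (minus), chr4:136886151-136886450 (minus) and chr4:136892865-136893164 (minus), written 5′ to 3′ along the gene's strand with GAGGAA or TTCCTC in capitals.
Mrc1: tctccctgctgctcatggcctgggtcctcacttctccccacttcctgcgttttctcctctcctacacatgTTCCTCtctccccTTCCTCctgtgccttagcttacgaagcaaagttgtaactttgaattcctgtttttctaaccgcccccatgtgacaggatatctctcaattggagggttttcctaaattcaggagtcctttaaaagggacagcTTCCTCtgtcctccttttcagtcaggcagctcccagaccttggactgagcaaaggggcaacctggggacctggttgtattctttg
Cd68: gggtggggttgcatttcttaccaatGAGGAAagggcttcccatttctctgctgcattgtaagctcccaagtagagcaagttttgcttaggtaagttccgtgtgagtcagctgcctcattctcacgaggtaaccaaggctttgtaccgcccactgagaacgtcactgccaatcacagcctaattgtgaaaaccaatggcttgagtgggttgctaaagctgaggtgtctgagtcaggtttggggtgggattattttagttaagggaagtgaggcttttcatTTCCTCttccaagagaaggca
C1qb: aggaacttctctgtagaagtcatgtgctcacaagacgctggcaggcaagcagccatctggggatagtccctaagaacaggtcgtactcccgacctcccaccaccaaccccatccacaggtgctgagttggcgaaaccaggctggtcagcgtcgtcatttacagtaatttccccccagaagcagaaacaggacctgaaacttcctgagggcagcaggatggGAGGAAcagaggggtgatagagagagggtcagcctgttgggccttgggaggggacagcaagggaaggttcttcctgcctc
C1qc: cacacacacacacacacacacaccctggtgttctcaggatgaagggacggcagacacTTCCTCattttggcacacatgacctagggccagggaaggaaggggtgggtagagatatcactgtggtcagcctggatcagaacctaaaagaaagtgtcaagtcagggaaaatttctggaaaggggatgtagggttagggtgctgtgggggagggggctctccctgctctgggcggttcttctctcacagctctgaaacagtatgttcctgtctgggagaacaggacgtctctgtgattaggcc

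The files gave FPKM and no counts, which leaves sequencing depth unknown. Summed FPKM ran between 225535.9 and 272371.4 per library, entries at 1 FPKM or more between 9844 and 10877, and small RNA genes took between 20.07% and 27.49% of the FPKM. Atf7, the targeted gene, stood at 7.26 and 7.94 FPKM in KO-labelled beige against 7.80 and 7.83 FPKM in WT beige, and at 6.88 and 7.73 FPKM in KO-labelled white against 9.10 and 7.10 FPKM in WT white. No difference by label was called (adjusted p = 0.949 in beige and 0.604 in white), and FPKM for the whole gene cannot tell exons apart. In C3H10T1/2 cells Atf7 stood at 41.2 and 39.1 FPKM in OE libraries against 8.52 and 9.09 FPKM in controls.

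The label of the list was checked against genes outside it. Adgre1, which encodes the F4/80 antigen of mouse macrophages and is not on the list, stood at 1.42 and 1.30 FPKM in KO-labelled beige and at 1.39 and 1.01 FPKM in WT beige. It stood at 29.2 and 30.7 FPKM in KO-labelled white and at 21.4 and 18.4 FPKM in WT white, and the C3H10T1/2 libraries reached at most 0.0187 FPKM. The 2 members not kept were the monocyte chemokine receptors Ccr2 and Cx3cr1: Ccr2 was listed at 0 in every library but KO-labelled beige replicate 2, which had 0.0243 FPKM, and Cx3cr1 reached at most 0.0566 FPKM. Markers of other cell types were low, though not all near 0. None of 13 lymphocyte markers and none of 8 mast cell markers reached 1 FPKM in 2 primary libraries, and their summed FPKM was at most 0.676 and 0.578 in any primary library. Of 10 matched neutrophil markers 2 passed the filter: Camp stood between 1.31 and 2.87 FPKM in the white libraries and fell with rosiglitazone in both genotypes, and S100a8 reached 2.15 FPKM. Of 9 dendritic cell markers 1 passed. Of 7 platelet markers 1 passed, Gp1bb, at 1.77 and 1.87 FPKM in WT beige and between 1.74 and 2.89 FPKM in white. In both KO-labelled beige libraries it was listed at 0, which may be a failed estimate. It was called lower in KO-labelled than in WT beige (limma, adjusted p = 0.00181), where 0.0974% of all genes tested were lower. In the C3H10T1/2 libraries Gp1bb stood between 1.58 and 2.51 FPKM. Ppbp, a platelet chemokine, reached at most 0.229 FPKM beside the member Pf4 at up to 29.0 FPKM. Of 12 endothelial markers 3 passed, Tek, Egfl7 and Flt1, with at most 2.97, 2.57 and 1.95 FPKM in white, while Pecam1 and Cdh5 reached at most 0.555 and 0.645 FPKM. In WT beige all 3 fell along with the members, where 32.1% of all genes tested were lower. In KO-labelled beige Tek and Flt1 fell, where 34.3% were lower. The part of these cell types in the marker levels was not tested.

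**Figure D1:**
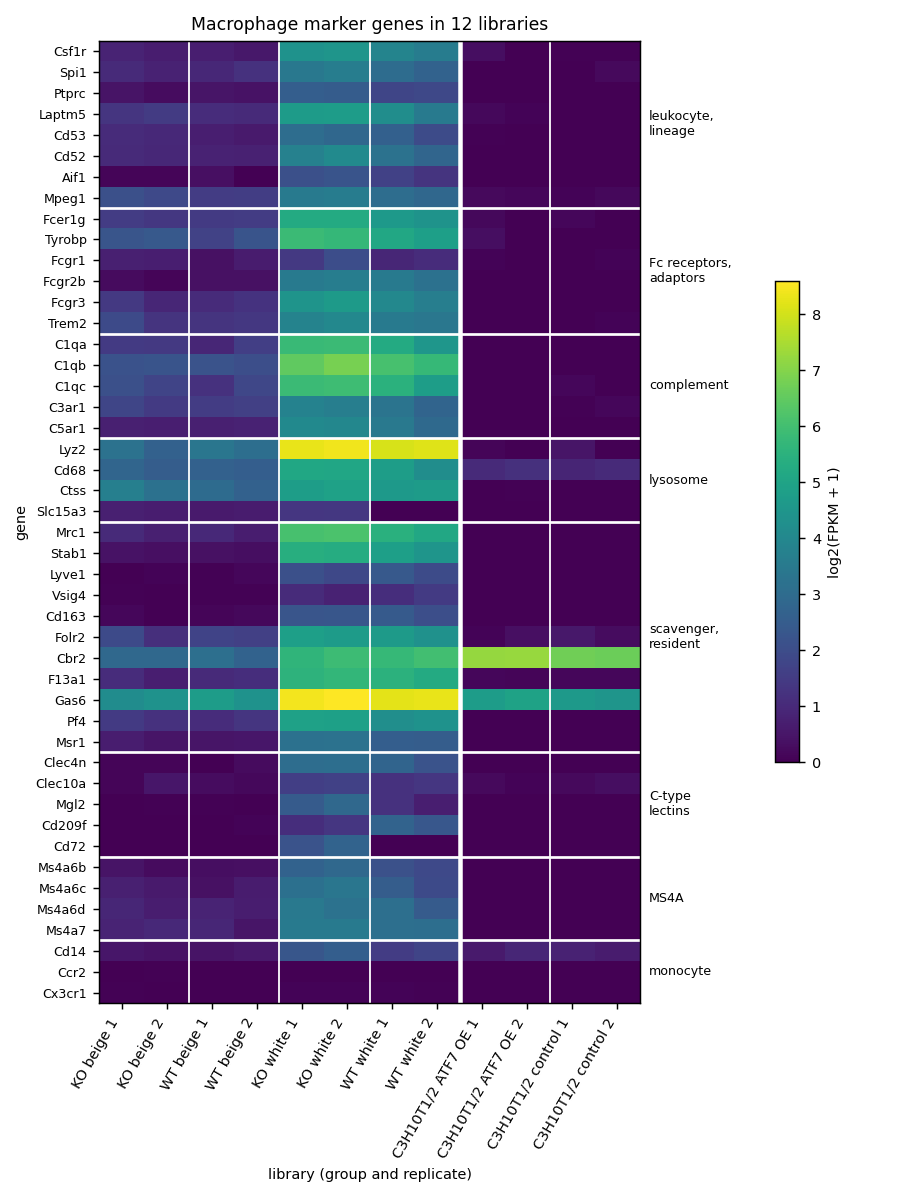
Level of each of the 46 listed genes, log2(FPKM + 1) as colour, in the 12 libraries (columns, 2 per group) with the genes ordered by role. White cultures are bright across nearly all rows, beige cultures are dim, and C3H10T1/2 libraries are dark outside Cbr2 and Gas6, with Ccr2 and Cx3cr1 dark throughout.

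The markers spanned a wide range of levels within the white cultures. Gas6, a secreted ligand of the TAM receptor kinases, had the highest mean in both white groups, at 365 ± 27.6 FPKM in KO-labelled white and 308 ± 12.8 FPKM in WT white (SD, n = 2 each). Lyz2, which encodes lysozyme, came next, at 327 ± 14.3 FPKM in KO-labelled white and 277 ± 13.2 FPKM in WT white, and the libraries of these 2 genes did not overlap in either group. C1qb followed in both groups, and in WT white its libraries overlapped those of Cbr2. At the lower end Vsig4, a complement receptor, stood at 1.07 and 0.749 FPKM in KO-labelled white against 1.18 and 1.76 FPKM in WT white. In all 4 white libraries 39 members reached 1 FPKM, in all 4 beige libraries 15 did, and 22 had no beige library at 1 FPKM. Cd72 and Slc15a3 reached 1 FPKM in KO-labelled white alone, so they passed the rule through that group and had to differ from it elsewhere.

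Beige and white cultures were compared first, with the question how much of the markers each kind of culture held. The markers were far lower in beige: summed over the 44 members they gave 93.9 and 80.3 FPKM in KO-labelled beige against 1522 and 1636 FPKM in KO-labelled white, and 87.2 and 79.7 FPKM in WT beige against 1209 and 1124 FPKM in WT white. In shares of a library's FPKM this was 0.0385% and 0.0301% against 0.667% and 0.685% in KO-labelled cultures, and 0.0351% and 0.0329% against 0.536% and 0.462% in WT cultures. The sums over 44 members include Cbr2 and Gas6, which were also well above 1 FPKM in the C3H10T1/2 line. There the 44 members summed to 124.0 FPKM or more in every library, above every beige library. For 42 members the lowest white library lay above the highest beige library. Fewer macrophages and less marker RNA per macrophage cannot be told apart in such bulk libraries. FPKM are shares, and other lists moved as well: the summed FPKM of 10 adipocyte markers was 11270 and 12650 in KO-labelled beige against 3731 and 3782 in KO-labelled white, and 12200 and 11620 in WT beige against 4760 and 5509 in WT white. The 11 stromal progenitor markers tested all fell with rosiglitazone in both genotypes. The share of all genes tested that fell was 34.3% in KO-labelled and 32.1% in WT cultures. The part of these shifts in the marker levels was not tested.

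By limma on log2(FPKM + 1), 44 of 44 members fell in KO-labelled beige, where 34.3% of all genes tested were lower and 26.6% higher, with a median of -2.62 for the members and -0.06 for all genes. In WT beige 41 of 44 fell and 1 was higher, where 32.1% of all genes tested were lower and 21.6% higher (53.7% in either direction), with medians of -2.18 and -0.10. Since many members passed the rule only through white cultures, these counts describe and do not support the difference. The split of all genes depends on the scaling: higher genes made up 43.7% of the calls in KO-labelled and 40.2% in WT cultures as tested, and 52.8% in KO-labelled and 50.9% in WT cultures with quantile normalization. The median of all genes then moved by more than 0.1 to 0.06 and 0.02, while the members' medians were -2.46 and -2.02. The change per gene ran alike in both genotypes. Over the 44 members the 2 sets of differences, from separate libraries, had a Pearson correlation of 0.888 and a Spearman correlation of 0.87, near the 0.899 and 0.901 over all genes, so it was not particular to the markers.

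Scavenger genes of resident macrophages held 3 of the 4 largest falls in each genotype. Stab1, the scavenger receptor stabilin-1, stood at 0.344 and 0.288 FPKM in KO-labelled beige against 40.9 and 39.0 FPKM in KO-labelled white, and at 0.321 and 0.245 FPKM in WT beige against 27.9 and 21.2 FPKM in WT white. Its beige mean was thereby 0.789% of the white mean in KO-labelled and 1.15% in WT cultures. Mrc1, the mannose receptor CD206, stood at 1.04 and 0.700 FPKM in KO-labelled beige and 0.993 and 0.626 FPKM in WT beige, against 67.4 and 71.0 FPKM in KO-labelled white and 43.2 and 34.9 FPKM in WT white. No beige library came near a white one, and the log2 differences of -5.24 (SE 0.15, adjusted p = 8.64e-08) in KO-labelled and -4.47 (SE 0.15, adjusted p = 3.07e-07) in WT cultures were among the 4 largest falls of each genotype. The others were Lyz2, Stab1 and F13a1, the A subunit of coagulation factor XIII. F13a1 stood at 1.13 and 0.647 FPKM in KO-labelled beige and at 1.04 and 1.17 FPKM in WT beige, against 46.5 and 50.6 FPKM in KO-labelled white and 45.3 and 36.9 FPKM in WT white. All 11 members of this role fell in both genotypes, where 34.3% of all genes tested were lower in KO-labelled and 32.1% in WT beige. Their medians were -3.24 in KO-labelled and -2.96 in WT cultures.

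Complement, lineage and lysosomal members fell as well, the complement role with a median of -3.94 in KO-labelled and -3.61 in WT cultures. C1qb, which encodes the B chain of C1q, stood at 3.44 and 3.65 FPKM in KO-labelled beige and 3.63 and 3.21 FPKM in WT beige, against 89.5 and 113 FPKM in KO-labelled white and 66.7 and 52.8 FPKM in WT white. The genes of the 3 C1q chains lie within 18.7 kb on chromosome 4, and their beige means were between 3.08% and 4.93% of white in KO-labelled cultures and between 5.0% and 5.73% in WT cultures. Csf1r stood at 0.825 and 0.625 FPKM in KO-labelled beige and 0.648 and 0.482 FPKM in WT beige, against 19.9 and 21.4 FPKM in KO-labelled white and 13.5 and 11.1 FPKM in WT white. All 8 leukocyte and lineage genes fell in both genotypes, where 34.3% of all genes tested were lower in KO-labelled and 32.1% in WT beige. Among the 8 was Ptprc, the leukocyte phosphatase CD45. It stood at 0.375 and 0.221 FPKM in KO-labelled beige against 4.90 and 4.67 FPKM in KO-labelled white, and at 0.386 and 0.335 FPKM in WT beige against 2.46 and 2.67 FPKM in WT white. Lyz2 had the largest log2 fall of all members, to 8.36 and 5.39 FPKM in KO-labelled beige (-5.40, SE 0.18, adjusted p = 1.52e-07) and to 9.47 and 7.59 FPKM in WT beige (-4.87, SE 0.18, adjusted p = 3.8e-07), against 317 and 337 FPKM in KO-labelled white and 268 and 287 FPKM in WT white. About 27.32% of the 36-base stretches of Lyz2 also occur in Lyz1, so reads of that length could be assigned to either.

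A few members kept a larger part of their white level. Ctss, the lysosomal protease cathepsin S, stood at 12.1 and 8.26 FPKM in KO-labelled beige against 26.8 and 29.4 FPKM in KO-labelled white, and at 6.97 and 5.32 FPKM in WT beige against 23.7 and 25.4 FPKM in WT white. That was 36.2% of the white mean in KO-labelled and 25.0% in WT cultures. Mpeg1, the pore-forming protein perforin-2, kept 28.2% in KO-labelled and 27.8% in WT cultures, C3ar1, the receptor of the fragment C3a, 17% in KO-labelled and 27.1% in WT cultures, and Fcgr1, the high-affinity IgG receptor, 28.2% in KO-labelled and 42.3% in WT cultures. Fcgr1 stood at 0.293 and 0.574 FPKM in WT beige against 0.915 and 1.14 FPKM in WT white, and that difference was not called (-0.50, SE 0.19, adjusted p = 0.0532). Slc15a3, a peptide and histidine transporter of lysosomes, went against the rest in WT cultures, at 0.540 and 0.581 FPKM in WT beige while it was listed at 0 in both WT white libraries (adjusted p = 0.000847). An exact 0 may be a failed estimate, so no fold is given, and in KO-labelled cultures the same gene was lower in beige, at 0.687 and 0.627 FPKM in KO-labelled beige against 1.55 and 1.65 FPKM in KO-labelled white, a call lost after quantile normalization (adjusted p = 0.0676). Mgl2, Cd209f and Vsig4 were close to 0 in beige: the highest beige library had 0.0458 FPKM of Mgl2, 0.0571 FPKM of Cd209f and 0.0430 FPKM of Vsig4.

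**Figure D2:**
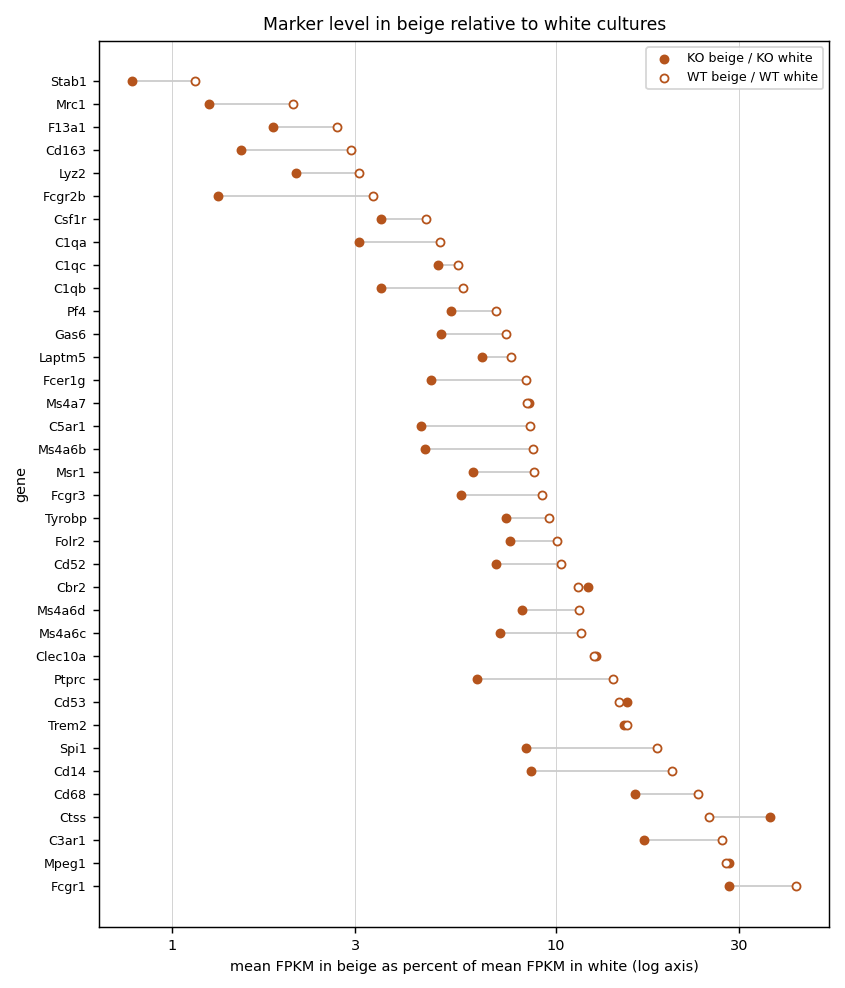
Mean FPKM in beige as a percent of the mean FPKM in white (log axis) for the 36 members above 0 in every library used, filled points for KO-labelled and open points for WT cultures. Stab1 lies at 0.789% and 1.15% at the top, and Mpeg1 and Fcgr1 near the bottom lie between 27.8% and 42.3%.

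**Figure D3:**
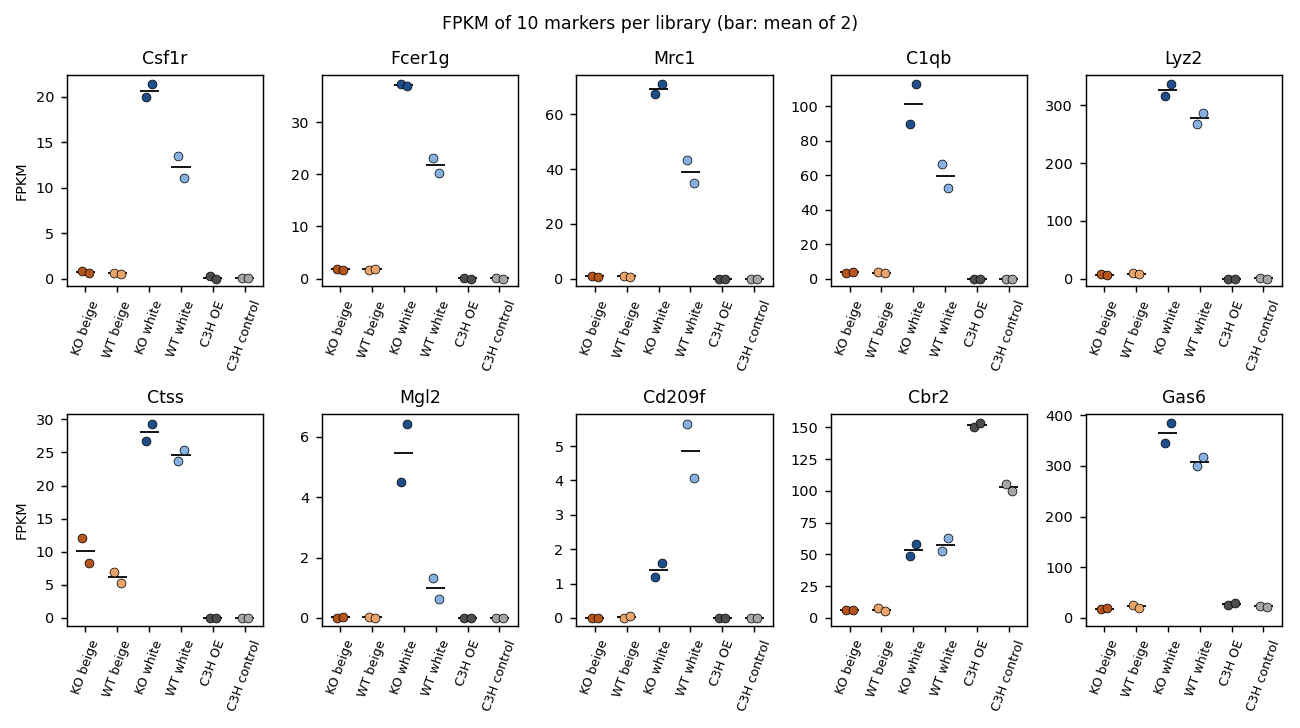
FPKM of 10 members in each library (points), with the mean of the 2 libraries of a group (bar), in the order KO-labelled beige, WT beige, KO-labelled white, WT white, C3H10T1/2 OE and C3H10T1/2 control. Csf1r, Fcer1g, Mrc1, C1qb and Mgl2 are highest in KO-labelled white, Cd209f in WT white, and Cbr2 in the C3H10T1/2 libraries.

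White cultures of the 2 genotypes were compared next. By the test 16 of 44 markers rose in KO-labelled white and 1 fell, where 1.27% of all genes tested were higher and 0.62% lower. The 16 include Cd72 and Slc15a3, which passed the filter through KO-labelled white alone, so their calls follow from the filter and 14 remain without them. For 13 of the 16 the mean FPKM was between 1.56 and 2.29 times that of WT white. The members' median difference was 0.68 on the log2 scale, against 0.03 for all genes, and 40 of 44 were above 0. In 39 members both KO-labelled libraries lay above both WT libraries, where 32.1% of all genes tested did so. In 2, Vsig4 and Cd209f, both lay below, where 21.2% of all genes tested did so. Cd72 and Slc15a3 are among the 40 above 0 and among these 39, which follows from the filter as well. The number of calls rests on few libraries and on the setting. The 16 became 0 without KO-labelled white replicate 2, 1 without KO-labelled white replicate 1, 3 without WT white replicate 2, 23 without WT white replicate 1 and 7 each without WT beige replicate 1 or 2. They became 3 with a pseudocount of 0.1, 5 without the filter, 7 with the 4 white libraries alone and 25 with all 12 libraries in the fit. Before libraries were left out, 3 of the 17 calls held under every alternative setting: Fcer1g, Cd72 and Slc15a3, the last 2 through the filter. The balance over all genes moved too. Higher genes made up 67.1% of the calls as tested and 50.4% with quantile normalization, where 17 members were higher and 1 lower.

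Other lists also stood apart by genotype in white cultures. The summed FPKM of the 10 adipocyte markers was 3731 and 3782 in KO-labelled white against 4760 and 5509 in WT white, and 1 of them, the lipid droplet gene Cidec, fell. Of 11 stromal progenitor markers tested 1 rose, Pi16, a peptidase inhibitor gene of fibroblast progenitors. The part of these lists in the marker levels was not tested.

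All 8 leukocyte and lineage genes were above WT white in both KO-labelled libraries. By the test 4 of the 8 rose and 0 fell, with a median of 0.69. Csf1r, at 19.9 and 21.4 FPKM in KO-labelled white against 13.5 and 11.1 FPKM in WT white, had no overlap between groups (0.71, SE 0.12, adjusted p = 0.0328). Ptprc stood at 4.90 and 4.67 FPKM in KO-labelled white against 2.46 and 2.67 FPKM in WT white (0.70, SE 0.11, adjusted p = 0.0219). Cd52, a small surface glycoprotein of leukocytes, stood at 12.6 and 16.1 FPKM in KO-labelled white against 8.51 and 5.99 FPKM in WT white. Mpeg1 stood at 10.3 and 11.1 FPKM in KO-labelled white against 7.33 and 6.38 FPKM in WT white (0.57, SE 0.11, adjusted p = 0.0439). Both genes rose without overlap, but both calls were lost with a pseudocount of 0.1 (adjusted p = 0.0724 for Cd52 and 0.0901 for Mpeg1). Spi1, the gene of PU.1, was apart by a like amount without passing, at 9.86 and 11.4 FPKM in KO-labelled white against 7.22 and 5.44 FPKM in WT white (0.67, SE 0.15, adjusted p = 0.0694). The lysosomal protein gene Laptm5, the tetraspanin gene Cd53 and Aif1, which encodes the calcium-binding protein IBA1, differed by 0.87, 0.68 and 0.69 and were not called.

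Among Fc receptors and their adaptors 1 of 6 rose. Fcer1g, the signalling chain shared by activating Fc receptors, stood at 37.3 and 37.0 FPKM in KO-labelled white against 23.2 and 20.3 FPKM in WT white (0.75, SE 0.10, adjusted p = 0.0153). The replicates of each group lay close together here, and the call held under every alternative fit run on all libraries, although it missed the threshold without WT white replicate 2 (adjusted p = 0.0875), KO-labelled white replicate 1 (0.0955) or KO-labelled white replicate 2 (0.15). Tyrobp, the adaptor DAP12, stood at 56.9 and 52.1 FPKM in KO-labelled white against 34.2 and 27.6 FPKM in WT white and was not called (0.81, SE 0.18, adjusted p = 0.0638). Fcgr1 and Fcgr3, both activating IgG receptors, differed by 0.71 and 0.74. The inhibitory receptor Fcgr2b differed by 0.22 and Trem2, a lipid-sensing receptor that signals through DAP12, by 0.44, and none of these 4 was called.

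The 3 C1q chains differed alike but unevenly in error. C1qb stood at 89.5 and 113 FPKM in KO-labelled white against 66.7 and 52.8 FPKM in WT white and rose (0.75, SE 0.14, adjusted p = 0.0426). C1qa stood at 55.8 and 56.5 FPKM in KO-labelled white against 36.9 and 22.033 FPKM in WT white (0.95, SE 0.25, adjusted p = 0.096). C1qc stood at 56.7 and 59.3 FPKM in KO-labelled white against 44.3 and 26.5 FPKM in WT white (0.74, SE 0.25, adjusted p = 0.163). Neither was called, and WT white replicate 2 lay well below replicate 1 in both. C5ar1, the receptor of the fragment C5a, rose to 15.7 and 14.6 FPKM in KO-labelled white, against 10.001 and 6.72 FPKM in WT white (0.81, SE 0.15, adjusted p = 0.0418), and C3ar1 differed by 0.71 without a call (adjusted p = 0.0817).

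Of the 4 lysosomal members 1 was called. Lyz2 stood at 317 and 337 FPKM in KO-labelled white against 268 and 287 FPKM in WT white (0.23, SE 0.18, adjusted p = 0.491), and Ctss at 26.8 and 29.4 FPKM in KO-labelled white against 23.7 and 25.4 FPKM in WT white (0.18, SE 0.17, adjusted p = 0.59). Cd68, a lysosomal glycoprotein, stood at 33.6 and 33.2 FPKM in KO-labelled white against 26.3 and 17.5 FPKM in WT white (0.61, SE 0.17, adjusted p = 0.109). None of these 3 was called, though no KO-labelled library overlapped a WT one. Slc15a3 was called, which follows from the filter. It stood at 1.55 and 1.65 FPKM in KO-labelled white while both WT white libraries listed it at 0. Its span overlaps that of Tmem132a, a gene at 1.90 to 6.94 FPKM in the primary libraries.

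Scavenger and resident macrophage genes were divided, with 3 of 11 higher, 0 lower and a median of 0.24. Mrc1 stood at 67.4 and 71.0 FPKM in KO-labelled white against 43.2 and 34.9 FPKM in WT white (0.82, SE 0.15, adjusted p = 0.0349). Stab1 stood at 40.9 and 39.0 FPKM in KO-labelled white against 27.9 and 21.2 FPKM in WT white (0.69, SE 0.13, adjusted p = 0.0386), and Msr1, the class A scavenger receptor, at 8.19 and 8.36 FPKM in KO-labelled white against 4.87 and 4.77 FPKM in WT white (0.67, SE 0.10, adjusted p = 0.0238). No library of these 3 receptors overlapped between genotypes. The other 8 were not called: Pf4, a chemokine of platelets and macrophages, differed by 0.58 (adjusted p = 0.0521), and the folate receptor Folr2, F13a1 and Gas6 by 0.25, 0.24 and 0.24. Cd163, the haemoglobin scavenger receptor, stood at 3.76 and 3.89 FPKM in KO-labelled white, inside the 4.36 and 3.21 FPKM of WT white (0.02, SE 0.13). Lyve1, a hyaluronan receptor, stood at 3.30 and 2.62 FPKM in KO-labelled white against 4.29 and 2.93 FPKM in WT white (-0.21, SE 0.16, adjusted p = 0.497). Cbr2, a carbonyl reductase, stood at 48.5 and 58.0 FPKM in KO-labelled white against 52.7 and 62.6 FPKM in WT white (-0.11, SE 0.16, adjusted p = 0.73), and Vsig4 differed by -0.36 (SE 0.15, adjusted p = 0.213).

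The C-type lectins held the 2 largest rises, of Cd72 and Mgl2, and the only fall called among the members. Cd72 passed the filter through KO-labelled white alone, so its rise follows from the filter. Mgl2, a galactose-binding lectin, stood at 4.51 and 6.44 FPKM in KO-labelled white against 1.32 and 0.635 FPKM in WT white, a mean 5.59 times as high (1.72, SE 0.19, adjusted p = 0.00614). Cd209f, a mouse gene of the DC-SIGN family, went the other way, at 1.18 and 1.59 FPKM in KO-labelled white against 5.65 and 4.06 FPKM in WT white, a mean 0.285 times as high (-1.29, SE 0.15, adjusted p = 0.00724). Without KO-labelled white replicate 2 the call of Mgl2 missed the threshold (adjusted p = 0.0515), and without KO-labelled white replicate 1 that of Cd209f did (0.0615). Cd72, a lectin of B cells and myeloid cells, stood at 3.55 and 5.71 FPKM in KO-labelled white and was listed at 0 in the other 10 libraries. The span of Cd72 overlaps that of Tesk1, which stood at 5.55 to 9.83 FPKM in the primary libraries. Clec4n, the receptor dectin-2, and Clec10a, the neighbour of Mgl2 within 40.5 kb of chromosome 11, differed by 0.60 and 0.33 and were not called. Reads may be shared in this group: 34.56% of the 36-base stretches of Cd209f occur in Cd209g, and 17.18% of those of Mgl2 occur in Clec10a.

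Of the 4 MS4A genes, which encode membrane proteins with 4 spans and lie within 284 kb of chromosome 19, 2 rose. Ms4a6c stood at 8.07 and 9.44 FPKM in KO-labelled white against 4.79 and 2.84 FPKM in WT white (1.04, SE 0.19, adjusted p = 0.0368). Ms4a6b stood at 5.503 and 6.51 FPKM in KO-labelled white against 3.39 and 2.69 FPKM in WT white (0.80, SE 0.13, adjusted p = 0.0269). Ms4a6d and Ms4a7 differed by 0.55 and 0.41 and were not called, and 18.46% of the 36-base stretches of Ms4a6c are shared with other genes, mostly Ms4a6b. Cd14, the coreceptor for lipopolysaccharide, stood at 3.91 and 4.99 FPKM in KO-labelled white against 1.89 and 2.42 FPKM in WT white and rose (0.79, SE 0.14, adjusted p = 0.0339).

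**Figure D4:**
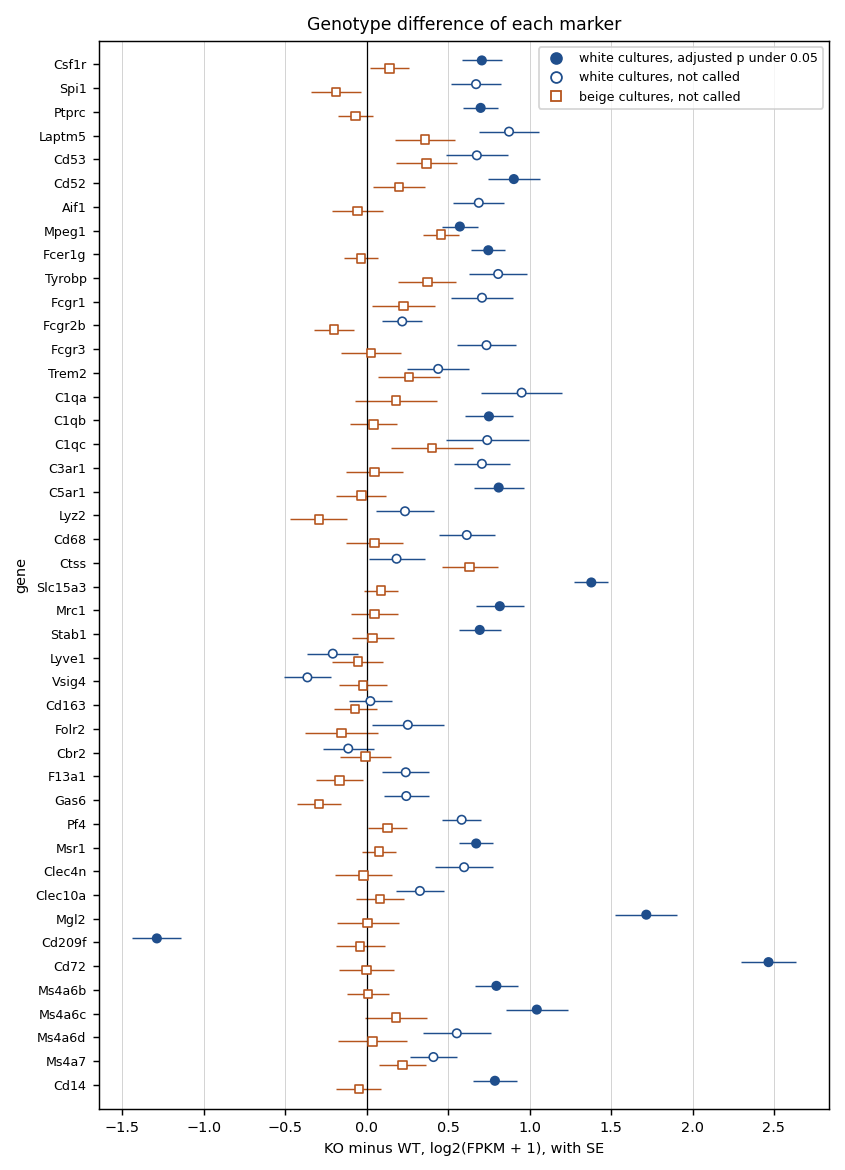
Genotype difference of each of the 44 members, KO-labelled minus WT on the log2(FPKM + 1) scale, with its standard error (bar), for white cultures (circles, filled where the adjusted p was under 0.05) and beige cultures (open squares, none called). The circles have a median of 0.68, Cd72, Mgl2 and Slc15a3 lie to the right, Cd209f lies at -1.29, and the squares lie between -0.29 and 0.63.

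To see whether the members differed in proportion to each other, each was set relative to the summed C1qa, C1qb and C1qc of its library. Csf1r was 9.88% and 9.36% of C1q in KO-labelled white against 9.16% and 11% in WT white, Mrc1 33.4% and 31.1% in KO-labelled white against 29.2% and 34.5% in WT white, and Fcer1g 18.5% and 16.2% in KO-labelled white against 15.7% and 20.1% in WT white. These 3 overlapped between genotypes once C1q was the base. Mgl2 stayed above, at 2.23% and 2.82% in KO-labelled white against 0.895% and 0.627% in WT white. Cd209f lay below, as most genes tested did, at 0.585% and 0.694% in KO-labelled white against 3.82% and 4.0% in WT white. In all, 7 members (Cd52, Aif1, Slc15a3, Mgl2, Cd72, Ms4a6b and Ms4a6c) were above WT in both libraries, where 0.797% of all genes tested were. Cd72 and Slc15a3 were listed at 0 in both WT white libraries and had to lie above, so nothing is read from them. Another 14 were below in both, among them Cd209f, Lyve1, Vsig4, Cd163, Folr2, F13a1, Gas6 and Lyz2. But so were 88.2% of all genes tested, and nothing is read from that count.

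**Figure D5:**
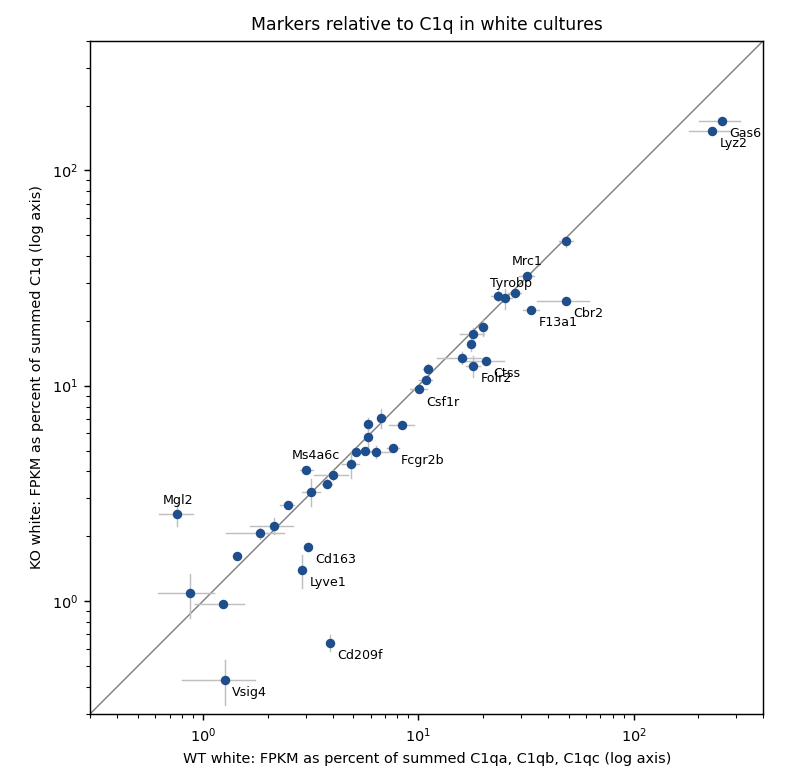
Level of 42 members as a percent of the summed FPKM of C1qa, C1qb and C1qc, KO-labelled white on the vertical and WT white on the horizontal axis (both log), with lines that join the 2 libraries of each group and the diagonal of equal values. Mgl2 lies above the diagonal at 2.23% and 2.82% in KO-labelled white against 0.895% and 0.627% in WT white, Cd209f and Vsig4 lie below it, and Mrc1, Csf1r and Tyrobp lie on it.

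In beige cultures no genotype difference was called in the 44 members by limma, where 0.0531% of all genes tested were higher and 0.0974% lower. At an unadjusted p under 0.05 stood 2 of the 44 members and 1160 of 11294 genes. The members' median difference was 0.04, as was that of all genes, and their range was -0.29 to 0.63. Both KO-labelled libraries lay above both WT libraries in 8 members and below in 2, where 27.1% and 14.1% of all genes tested did so. Ctss was apart by most, at 12.1 and 8.26 FPKM in KO-labelled beige against 6.97 and 5.32 FPKM in WT beige (0.63, SE 0.17, adjusted p = 0.301). Mpeg1 stood at 3.31 and 2.69 FPKM in KO-labelled beige against 1.88 and 1.94 FPKM in WT beige (0.46, SE 0.11, adjusted p = 0.255). The groups of both genes did not overlap. C1qc stood at 3.29 and 2.42 FPKM in KO-labelled beige against 1.36 and 2.57 FPKM in WT beige (0.40), with overlap, and Tyrobp at 3.86 and 4.25 FPKM in KO-labelled beige against 2.22 and 3.72 FPKM in WT beige (0.37), without. The lowest differences were -0.29 for Lyz2 and Gas6, -0.20 for Fcgr2b and -0.19 for Spi1. Spi1 stood at 1.02 and 0.756 FPKM in KO-labelled beige against 0.956 and 1.36 FPKM in WT beige, and Fcgr2b at 0.204 and 0.0867 FPKM in KO-labelled beige against 0.309 and 0.321 FPKM in WT beige. Only the groups of Fcgr2b and Gas6 were apart downwards among the members. Gas6 stood at 17.04 and 19.7 FPKM in KO-labelled beige against 25.7 and 19.98 FPKM in WT beige. Csf1r, Mrc1 and Fcer1g differed by 0.14, 0.05 and -0.04. At levels of a few FPKM or less the added 1 shrinks a difference on this scale.

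The genotype difference was tested between beige and white directly, as beige minus white. For 39 of 44 members it was below 0, with a median of -0.55 against 0.01 for all genes. Of the members 2 passed, both lower, where 0.186% of all genes tested were lower and 0.106% higher. At an unadjusted p under 0.05 stood 25 of 44 members and 1900 of 11294 genes. The 2 were Cd72 (-2.47, SE 0.24) and Slc15a3 (-1.29, SE 0.15), the genes that passed the filter through KO-labelled white alone, so nothing is read from their calls. The adjusted p of Mgl2 was 0.0518 (-1.71, SE 0.27) and that of Cd209f 0.0751 (1.25, SE 0.21). For the members a smaller genotype difference in beige was thus not shown by the test. Without KO-labelled white replicate 1 or 2 neither Cd72 nor Slc15a3 passed the filter and 0 members were called. The count of lower members was 4 without WT white replicate 1, and 1 without WT beige replicate 1, WT beige replicate 2 or KO-labelled beige replicate 2.

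The C3H10T1/2 libraries gave the level of the list in a mesenchymal line. There 21 of the 44 members were listed at 0 in all 4 libraries, and 40 stayed under 0.5 FPKM in all 4. The remaining 4 were Cbr2, Gas6, Cd68 and Cd14. Cbr2 stood at 150 and 153 FPKM in C3H10T1/2 OE and 106 and 100 FPKM in control libraries, above every primary culture, and Gas6 at 25.9 and 29.6 FPKM in OE and 24.1 and 21.1 FPKM in control. Cd68 stood at 1.03 and 1.28 FPKM in OE and 0.868 and 1.05 FPKM in control, and Cd14 at 0.546 and 0.916 FPKM in OE and 0.755 and 0.585 FPKM in control. Cbr2 and Gas6 were thus well above 1 FPKM in the line. With them the 44 members summed to 179.0 and 185.8 FPKM in OE and 132.9 and 124.0 FPKM in control, above every beige library. Without them the summed level of the list was 3.03 and 2.87 FPKM in OE and 3.14 and 2.78 FPKM in control. The same 42 genes summed to 70.3 and 54.2 FPKM in KO-labelled beige, 53.8 and 54.2 FPKM in WT beige, 1128 and 1194 FPKM in KO-labelled white and 856.9 and 743.9 FPKM in WT white.

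WT beige cultures lay above C3H10T1/2 controls in most members, though strain, tissue and culture cannot be told apart in this comparison. By limma over all 12 libraries 32 of 44 were higher and 1 lower, where 25.3% of all genes tested were higher and 31.1% lower. The medians were 0.69 for the members and -0.06 for all genes. The members were kept by their level in primary libraries, WT beige among them, and the line had no part in that rule. These counts therefore describe and do not support the difference. After quantile normalization the counts were 26 higher and 2 lower. Lyz2 stood at 9.47 and 7.59 FPKM in WT beige against 0.398 FPKM and a listed 0 in control. C1qb stood at 3.63 and 3.21 FPKM in WT beige and Tyrobp at 2.22 and 3.72 FPKM, and both were listed at 0 in the 2 control libraries (adjusted p = 3.68e-07 and 6.39e-06). By role 5 of 5 complement, 6 of 6 Fc receptor and adaptor, 4 of 4 lysosomal and 4 of 4 MS4A genes were higher. So were 7 of 8 leukocyte and lineage genes and 6 of 11 scavenger genes, with the same limit. For the C-type lectins 0 of 5 were called, and they were at or near 0 in both. The 1 lower member was Cbr2 (-3.79, SE 0.14, adjusted p = 1.53e-08).

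ATF7 overexpression was compared within the line, where only Cbr2, Gas6 and Cd68 passed the filter on low values. Cbr2 was higher in OE (0.56, SE 0.06, adjusted p = 0.0179), where 0.431% of all genes tested were higher and 1.06% lower (1.49% in either direction). The call was lost without C3H10T1/2 control replicate 2 (adjusted p = 0.062), without OE replicate 1 (0.0899) and without OE replicate 2 (0.0851), and with the replicate block (0.0613). About 14.21% of the 36-base stretches of Cbr2 occur in the gene model Gm11771. Gas6 differed by 0.29 (SE 0.10, adjusted p = 0.204) and Cd68 by 0.14 (SE 0.12, adjusted p = 0.616), neither called.

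A further 61 myeloid genes off the list, of which 53 were tested, ran the same way. They fell in 51 of 53 in KO-labelled beige and 50 of 53 in WT beige against the matching white cultures, where 34.3% and 32.1% of all genes tested were lower, and 0 rose in either. In KO-labelled against WT white 9 rose and 0 fell, where 1.27% of all genes tested were higher and 0.62% lower, with a median of 0.51. The strongest was Coro1a, a leukocyte actin regulator, at 9.68 and 9.24 FPKM in KO-labelled white against 3.48 and 3.46 FPKM in WT white (1.23, SE 0.13, adjusted p = 0.00578). Dock2, a Rac activator of leukocytes, stood at 3.99 and 4.11 FPKM in KO-labelled white against 2.25 and 1.82 FPKM in WT white. Hpgds, a prostaglandin D synthase, stood at 5.22 and 5.07 FPKM in KO-labelled white against 2.92 and 3.09 FPKM in WT white. In the C3H10T1/2 libraries Hpgds was not near 0, at 1.07 to 1.74 FPKM. Others that rose were Lcp1, Syk, Cd33, Cyth4 and Tlr7, chosen for naming after their values were seen. Adgre1 differed by 0.57 (SE 0.12, adjusted p = 0.0515) and Itgam, the integrin CD11b, by 0.68 (SE 0.15, adjusted p = 0.0592), neither called. In beige cultures the median genotype difference of the 53 was 0.05. Set as beige minus white, the genotype difference was called lower in 1 of the 53, Coro1a, and higher in 0, with a median of -0.465. Of all genes tested 0.186% were lower there and 0.106% higher. Coro1a stood at 0.359 and 0.231 FPKM in KO-labelled beige against 0.496 and 0.156 FPKM in WT beige. In WT beige 29 of the 53 were higher than in C3H10T1/2 control and 4 lower (Mertk, Tlr2, Tlr4 and Arhgdib). Of all genes tested 25.3% were higher and 31.1% lower there.

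The ligands of CSF1R were measured in the same libraries. Csf1 stood at 49.4 and 78.4 FPKM in KO-labelled beige and 46.7 and 56.4 FPKM in WT beige, and at 74.7 and 82.1 FPKM in KO-labelled white and 68.1 and 56.4 FPKM in WT white. It was called in none of the 4 comparisons among primary cultures, and in C3H10T1/2 libraries it lay between 3.91 and 5.16 FPKM. Il34, at most 2.61 FPKM in the primary cultures, fell in KO-labelled beige (-1.24, SE 0.12, adjusted p = 3.01e-05) and in WT beige (-1.04, SE 0.12, adjusted p = 0.000114) against white. Csf2 was listed at 0 in every library. MHC class II genes were mixed, with 3 of 7 tested: H2-Aa and H2-Eb1 stayed under 0.5 FPKM in every library, while H2-Ab1 stood at 2.97 and 1.68 FPKM in KO-labelled beige and 3.79 and 3.25 FPKM in WT beige, against 0.0969 and 0.541 FPKM in KO-labelled white and 0.167 and 0.118 FPKM in WT white, and it rose in beige of both genotypes. H2-DMa and H2-DMb1, which encode subunits of the peptide-loading protein H2-DM, fell in KO-labelled beige (-0.78, adjusted p = 0.000895, and -0.46, adjusted p = 0.031) and were not called in WT beige (-0.34 and -0.27). Of 14 genes of classical or alternative activation 3 passed the filter, and in beige of both genotypes Ptgs2 rose and Il1rn fell. In white cultures Arg1 reached at most 0.142 FPKM and Nos2 at most 0.0632 FPKM, and Chil3 was listed at 0 in all libraries. In beige cultures Arg1 reached at most 0.177 FPKM and Nos2 at most 0.767 FPKM. Il1rn stood between 10.9 and 14.9 FPKM in the C3H10T1/2 libraries, above every primary library.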

How the data were processed

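RNA of 12 cultures was sequenced after rRNA depletion with a directional kit, per the labels' protocols. The authors deposited FPKM per gene, named as such in the file headers, with no counts. The submitters' processing notes name mm10 (GRCm38) as genome build. The aligner, quantifier and annotation were not given in the sources used here. Since FPKM keep no depth, the precision behind each value is unknown. Groups came from the labels, and the members and gene lists were chosen with earlier results of these data known. Libraries were joined by gene and position, and 1 was added to starts counted from 0.

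Genes at 1 FPKM or more in at least 2 libraries were tested on log2(FPKM + 1) with limma 3.58.1 in R 4.3.3 (empirical Bayes with a trend), adjusted by Benjamini-Hochberg over all genes tested, with a threshold of 0.05. The 8 primary libraries shared 1 fit (11294 genes, 4 residual degrees of freedom). WT beige and C3H10T1/2 control were compared in a fit of all 12 (11601 genes, 6), and OE and control within the line (9981 genes, 2). A difference on this scale understates the change of low genes, and an exact 0 may be a failed estimate. The fit was tested on simulated data. Named members were those that define the lineage, those called by genotype, the 4 largest differences in each direction and those highest in C3H10T1/2. Alternatives were another pseudocount, no filter, quantile normalization, median centring, small RNA genes left out, no trend, other sets of libraries, a replicate block and each library left out. Promoters and transcripts were taken from RefSeq and GENCODE tables of the same build.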

Additional observations from a re-analysis of the deposited data

Results flagged for a closer look

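For 2 members the genotype difference passed the threshold when set between beige and white cultures. Both reached 1 FPKM in KO-labelled white alone and entered the fit through that group, so the filter fixed a difference and nothing is read from the calls. Cd72 was listed at 0 in both libraries of KO-labelled beige, WT beige and WT white, while KO-labelled white had 3.55 and 5.71 FPKM. The genotype difference in beige minus that in white was -2.47 on the log2(FPKM + 1) scale (limma, SE 0.24).

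Slc15a3 stood at 0.687 and 0.627 FPKM in KO-labelled beige against 0.540 and 0.581 FPKM in WT beige, and at 1.55 and 1.65 FPKM in KO-labelled white while both WT white libraries listed it at 0. Its difference was -1.29 (limma, SE 0.15). Both values rest on a listed 0 in WT white, and neither gene could be tested without KO-labelled white replicate 1 or 2. Whether these zeros are failed estimates was not tested.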

How the results depend on the processing

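With 2 libraries a group and unknown depth, the number of calls between KO-labelled white and WT white moved most. Against 16 members higher and 1 lower, a pseudocount of 0.1 gave 3 and 0. Members higher were 5 with no filter, 25 with all 12 libraries in the fit and 7 with the groups of the comparison alone. With each library left out, between 0 and 23 were higher and between 0 and 1 lower. Over all genes the 143 higher became 29, 88, 450 and 73 under the same 4 settings, and the 70 lower became 25, 34, 192 and 43, with 192 after quantile normalization and 108 after median centring. With a library left out, Cbr2 ranged between -0.2395 and 0.0129 (0.0082 without WT white replicate 2 and 0.0129 without KO-labelled white replicate 1), and Lyve1 between -0.4237 and 0.0070 (without WT white replicate 1). The cause was not tested.

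In WT beige against WT white, members higher were 0 with the groups of the comparison alone and between 0 and 1 with a library left out. For the difference between beige and white, 12 libraries in the fit gave 1 member higher and 5 lower, and left-out libraries gave 0 to 1 higher and 0 to 4 lower. Its calls over all genes were 19 higher after quantile normalization, 12 lower with a pseudocount of 0.1, and 38 higher and 78 lower with 12 libraries, against 12 and 21. It could not be computed from the groups of 1 comparison alone. In beige by genotype 11 genes were higher with 12 libraries and 11 with the replicate block, against 6. Against C3H10T1/2 control 2 members were lower after quantile normalization.

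Same-numbered libraries deviated together weakly (correlation 0.134 between genotypes in beige and 0.151 in white, and -0.0962 to -0.00585 in the other pairs). The labels do not tie the numbers, so they are only shared. With the replicate block 14 members were higher in KO-labelled white, and in C3H10T1/2 OE 0 were, with 21 genes higher and 67 lower. Left-out libraries gave 0 to 1 there. Without small RNA genes the summed FPKM of the members averaged 112.7 in KO-labelled beige, 107.1 in WT beige, 2164 in KO-labelled white, 1590 in WT white, 241.3 in C3H10T1/2 OE and 162.8 in control.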
